A study of Mus musculus with 10 samples.

Results

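The 7 genes described here encode the ISG15 and FAT10 modifier system of the mouse. They were taken by name, as the known enzymes and modifiers of the system, with earlier results of these data known, and are Isg15, Uba7, Ube2l6, Herc6, Usp18, Ubd and Uba6. Each had a row among the 39488 rows of the table of estimated counts, and all 7 were among the 12654 genes that had enough counts to be tested. ISG15 and FAT10 are small proteins of the ubiquitin family that are attached to other proteins by a chain of an activating enzyme (E1), a conjugating enzyme (E2) and a ligase (E3). For ISG15, an antiviral modifier induced by type I interferon and by bacterial products in macrophages, these are Uba7, Ube2l6 and, in the mouse, Herc6, and the protease Usp18 takes ISG15 off again. FAT10, the product of Ubd, is induced by interferon gamma and TNF, is activated by Uba6, which also activates ubiquitin, and sends its targets to the proteasome.

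RNA was sequenced from cultured peritoneal macrophages of C57BL/6 mice aged 8 weeks, collected on day 3 after thioglycollate, an irritant that draws macrophages into the peritoneal cavity. Both groups were wild type and thioglycollate-elicited. The 5 control libraries are labelled as untreated, and the 5 ox-LDL libraries came from cells given LPS at 100 ng/ml and then oxidized low-density lipoprotein (ox-LDL) at 100 µg/ml for 16 h. By another reading of the description, LPS was given to the controls too. The labels were followed, so the effects of LPS and of ox-LDL cannot be told apart here. The libraries were described as biological replicates, but the animals or pools behind them were not given, so the p-values measure the spread between these libraries. In bulk RNA, fewer cells of a type and less RNA per cell cannot be told apart.

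The total count was 20094647 to 20687289 in control libraries and 19257131 to 20358017 in ox-LDL libraries. Levels are given as CPM, counts put on a common library size with edgeR's TMM factors, and genes are compared with each other by FPKM, the deposited length-scaled value. One library stood apart. Ox-LDL replicate 2 had a TMM factor of 0.593, against 0.837 to 1.19 in the other 9 libraries, and its genes deviated from the group mean by length. On the log2 scale of CPM without TMM factors, its genes shorter than 1000 bases lay a median of 0.97 above the mean of their group. On the same scale, those longer than 4000 bases lay a median of 1.12 below it (median deviation -1.12). Results that rest on this library are given with and without it. Of the macrophage markers, all 7 were detected, with a summed level of 12142 to 47594 CPM over all libraries. Lyz2 alone was at 17493 to 44725 CPM in control and 8713 to 44490 CPM in ox-LDL libraries. The summed neutrophil, B cell, T cell and NK cell markers each stayed at or below 2.74 CPM in every library. The neutrophil marker Ly6g and the B cell marker Ighm had no row and are not in these sums.

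The genes lie on 6 chromosomes, and in the mm9 annotation none overlaps another gene. Isg15 occupies chr4:155573533-155574927 on the minus strand and has 2 exons, Ubd occupies chr17:37330837-37333040 on the plus strand and has 2 exons. The enzymes are longer genes, namely Uba7 (chr9:107877895-107886387, plus strand, 24 exons), Ube2l6 (chr2:84638985-84650492, plus strand, 4 exons), Herc6 (chr6:57530986-57615130, plus strand, 23 exons), Usp18 (chr6:121195924-121220934, plus strand, 11 exons) and Uba6 (chr5:86539745-86601828, minus strand, 33 exons).

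Promoter sequence was available in the RefSeq table of GRCm38.p6 for 5 of the 7 genes, as the 250 bases before and 50 bases after the start. The promoters of both modifier genes are shown because these 2 genes had the highest fold changes of the 7 and because their promoters held the matches found. Each line gives the 150 bases before the start, 5′ to 3′ on the strand of the gene, chr4:156200819-156200968 for Isg15 and chr17:37193742-37193891 for Ubd, with matched bases in capitals.
Isg15: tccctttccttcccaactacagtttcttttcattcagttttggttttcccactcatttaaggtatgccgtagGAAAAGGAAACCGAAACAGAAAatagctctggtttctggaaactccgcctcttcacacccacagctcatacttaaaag
Ubd: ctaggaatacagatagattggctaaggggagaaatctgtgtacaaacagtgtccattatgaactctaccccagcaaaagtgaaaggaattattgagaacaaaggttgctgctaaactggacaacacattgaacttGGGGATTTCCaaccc
The capitals in the Isg15 promoter mark 3 overlapping matches to the core of the interferon-stimulated response element (ISRE, TTTC and TTTC with any 2 bases between, searched on both strands), which together run from -78 to -57 relative to the start. This core was present in 3.44% of all 32851 promoters of the same length. The capitals in the Ubd promoter mark a match to the NF-kB consensus at -15 to -6, which 4.51% of all promoters held. That broader consensus was added after the sequences had been seen, and the stricter form searched first, GGGA and TTTCC with any base between, held by 0.411% of promoters, did not match in the 5. The gamma-activated site TTCNNNGAA, held by 8.3% of promoters, did not match in the 5 either, and the windows of Uba7, Ube2l6 and Herc6 held no match to any of these letters. These matches describe letters in a window and are not evidence of binding.

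The genes of the ISG15 pathway and Ubd were upregulated in ox-LDL-treated macrophages, whereas Uba6 was not called in either direction. A gene was called when the edgeR quasi-likelihood test gave an adjusted p below 0.01. Of the 7 genes, 6 were called higher and 0 lower, against 9.4% and 5.35% of all genes tested and 14.7% in either direction. The same 6 had a log2 fold change above 2, against 4.78% of all genes. In 5 of them, every ox-LDL library lay above every control library, against 11.6% of all genes with this order and 9.11% with the opposite one. The sixth, Usp18, overlapped between the groups.

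**Figure D1:**
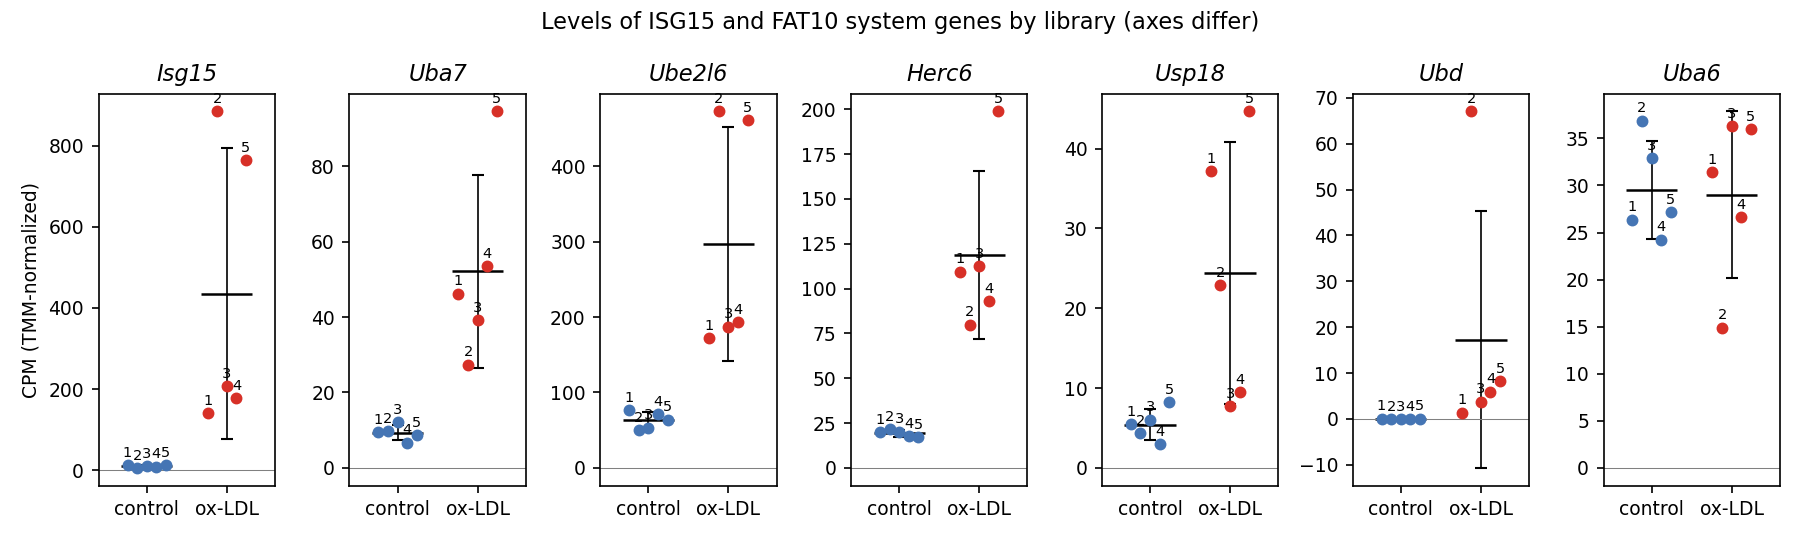
Levels of the 7 genes in each library, with a panel per gene, the group on the x axis and TMM-normalized CPM on a y axis that differs between panels. Points are libraries numbered by replicate, and lines and bars are the mean ± SD of 5 libraries. Isg15, Uba7, Ube2l6, Herc6 and Ubd were higher in every ox-LDL library than in any control library, and Ubd reached 67.0 CPM in ox-LDL replicate 2.

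Isg15, the modifier, was at 12.1, 5.86, 9.37, 8.70 and 12.1 CPM in control replicates 1 to 5. In ox-LDL replicates 1 to 5 it was at 141, 885, 207, 178 and 764 CPM. The lowest ox-LDL library was thus far above the highest control, and replicates 2 and 5 were well above the other ox-LDL libraries. The mean rose from 9.61 ± 2.60 to 435 ± 359 CPM (SD, n = 5 each), and the log2 fold change was 5.50 (SE 0.61, adjusted p = 8.07e-05, edgeR quasi-likelihood test with Benjamini-Hochberg adjustment). Isg15 had the 93rd highest log2 fold change of the genes tested. Without ox-LDL replicate 2 the log2 fold change was 5.03. With the trend of each library on gene length removed, replicate 2 stood at 303 CPM, next to 186, 268, 245 and 944 CPM in replicates 1, 3, 4 and 5. The transcript is short, at 618 bases by the deposited values, and its estimated count was not a whole number in 6 of 10 libraries, by a counting rule that is not given in the sources used here.

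Uba7, the E1 that activates ISG15, was at 9.46, 9.76, 12.1, 6.70 and 8.73 CPM in control replicates 1 to 5. Its level in ox-LDL replicates 1 to 5 was 46.2, 27.4, 39.2, 53.5 and 94.6 CPM. The groups did not overlap, and here ox-LDL replicate 2 was the lowest treated library, unlike for Isg15. The mean rose from 9.34 ± 1.94 to 52.2 ± 25.6 CPM (SD, n = 5 each), with a log2 fold change of 2.48 (SE 0.31, edgeR adjusted p = 0.000186).

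Ube2l6, the E2 that passes ISG15 on from Uba7, had the highest control level of the 7 genes per length. Control replicates 1 to 5 were at 76.3, 50.2, 53.2, 71.0 and 63.8 CPM. Ox-LDL replicates 1 to 5 were at 172, 473, 187, 193 and 461 CPM. Replicates 2 and 5 were again the highest, and no ox-LDL library fell within the control range. The mean rose from 62.9 ± 11.2 to 297 ± 155 CPM (SD, n = 5 each), and the log2 fold change was 2.24 (SE 0.34, edgeR adjusted p = 0.000591).

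Herc6, the main ISG15 ligase of the mouse, had close control values, 20.0, 21.7, 20.2, 17.6 and 17.2 CPM in replicates 1 to 5. The ox-LDL libraries were at 109, 79.9, 113, 93.0 and 199 CPM in the same order. Every ox-LDL library was above the controls, and replicate 5 stood apart from the other 4. The mean rose from 19.3 ± 1.88 to 119 ± 46.7 CPM (SD, n = 5 each), and the log2 fold change of 2.62 had the smallest adjusted p of the 7 genes (SE 0.25, edgeR adjusted p = 3.35e-05).

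Usp18, which removes ISG15 from proteins and separately restrains signaling from the type I interferon receptor, rose least clearly. Control replicates 1 to 5 were at 5.48, 4.32, 6.03, 2.99 and 8.25 CPM, and ox-LDL replicates 1 to 5 at 37.2, 22.9, 7.71, 9.52 and 44.7 CPM. Ox-LDL replicate 3 lay below control replicate 5, and replicate 4 lay just above it, so that the treated libraries covered a wide range. The mean rose from 5.41 ± 1.97 to 24.4 ± 16.4 CPM (SD, n = 5 each), and the log2 fold change was 2.17 (SE 0.48, edgeR adjusted p = 0.00608). The call was not stable. Usp18 kept an adjusted p below 0.01 in 13 of 24 alternative analyses, with adjusted p from 6.56e-05 to 0.0259, and lost it without control replicate 1, 2, 3 or 4 and without ox-LDL replicate 1 or 5 (edgeR adjusted p 0.0135 to 0.0191).

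Ubd, the gene of FAT10, went from barely detected to clearly expressed. It had 1, 0, 0, 0 and 2 counts in control replicates 1 to 5. In ox-LDL replicates 1 to 5 it had 31, 783, 78, 124 and 139 counts, or 1.35, 67.0, 3.80, 5.93 and 8.30 CPM. All ox-LDL libraries were above all controls, and ox-LDL replicate 2 held far more than any other. Against a floor of 3 counts per control library, the mean of 17.3 ± 27.9 CPM (SD, n = 5) was at least 122-fold higher than in control macrophages. Without ox-LDL replicate 2 the mean was 4.85 CPM, at least 34.3-fold higher. The edgeR quasi-likelihood test gave an adjusted p of 0.000781 with all libraries and 4.66e-05 without ox-LDL replicate 2, where 13.5% of genes were called higher. With the length trend removed, replicate 2 was at 27.0 CPM and the other ox-LDL libraries at 1.68 to 9.93 CPM.

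FAT10 is also known from mature dendritic cells. The summed dendritic cell markers Zbtb46, Flt3, Xcr1, Clec9a and Siglech were at 0.770 to 1.3 CPM in control libraries and at 1.87 to 4.62 CPM in ox-LDL libraries, without overlap. Of the 5, Clec9a rose (log2 fold change 2.33, edgeR adjusted p = 0.00283) but lost its call without control replicate 1, 2 or 4 (highest edgeR adjusted p = 0.0110). Zbtb46 had a log2 fold change of 1.24 (adjusted p = 0.0578), and the other 3 had too few counts to be tested, each being at or below 0.390 CPM in every library. The part of these cells in the level of Ubd was not tested.

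Uba6, the E1 of FAT10 and a second E1 of ubiquitin, was at 26.4, 36.9, 32.9, 24.3 and 27.1 CPM in control replicates 1 to 5. Ox-LDL replicates 1 to 5 were at 31.4, 14.9, 36.3, 26.6 and 36.0 CPM. The groups overlapped throughout, apart from the low value of ox-LDL replicate 2. The control mean was 29.5 ± 5.22 CPM and the ox-LDL mean 29.0 ± 8.84 CPM (SD, n = 5 each), with a log2 fold change of -0.02 (SE 0.24, edgeR adjusted p = 0.960). The sign of this small value depended on which libraries were included. With the length trend removed, ox-LDL replicate 2 was at 20.9 CPM, still the lowest of the treated libraries. The estimated count of Uba6 was not whole in 4 of 10 libraries.

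**Figure D2:**
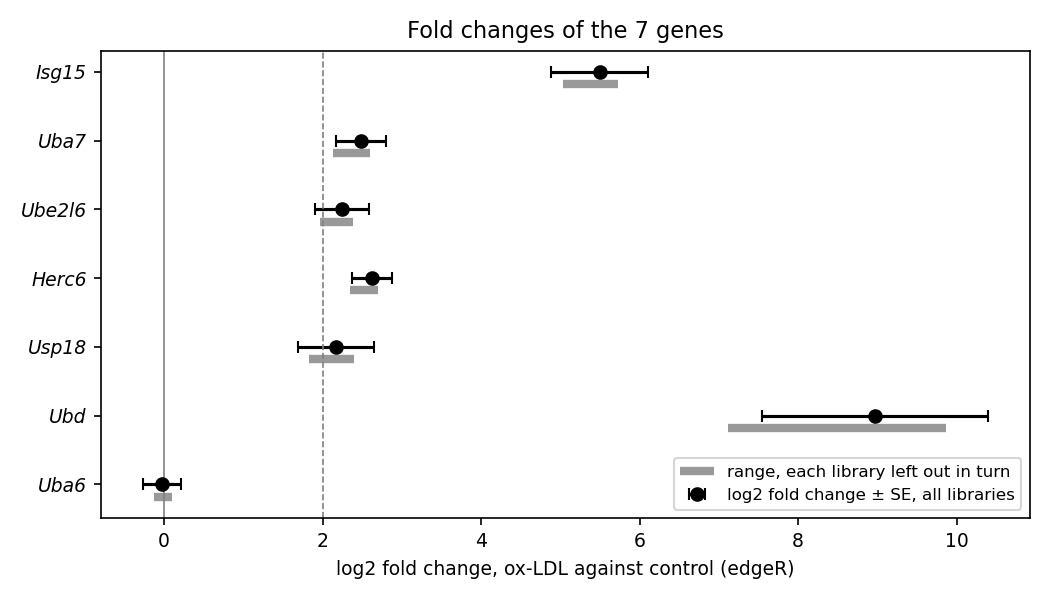
Log2 fold change of the 7 genes (x axis, ox-LDL against control, edgeR). Points with bars are the value ± SE with all 10 libraries, grey bars the range when each library was left out in turn, and the dashed line a log2 fold change of 2. The grey bars of Isg15, Uba7, Ube2l6, Herc6, Usp18 and Ubd lie above 0, and that of Uba6 runs from -0.13 to 0.10. The plotted value of Ubd (8.97) is a fitted estimate against nearly empty controls and not a bound.

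The order of the genes by FPKM changed between the groups. In control macrophages, the mean FPKM was 52.8 for Ube2l6, 16.2 for Isg15, 7.89 for Uba6, 5.49 for Herc6, 3.82 for Usp18, 3.36 for Uba7 and 0.036 for Ubd. Neighbours in this order kept it in at least 4 of 5 control libraries, except Usp18 and Uba7, which kept it in 2 of 5. In ox-LDL macrophages, the mean FPKM was 555 for Isg15, 204 for Ube2l6, 29.9 for Herc6, 16.9 for Uba7, 14.4 for Ubd, 14.2 for Usp18 and 7.26 for Uba6. Isg15, Ube2l6, Herc6 and Uba7 stood in this order in all 5 libraries, and Uba7 was above Ubd in 4 of 5. The last 3 genes could not be ordered, since Ubd was above Usp18 in 2 of 5 libraries and Usp18 above Uba6 in 3 of 5. Among 29700 rows ranked by mean FPKM, Isg15 moved from rank 3565 to 209, Ube2l6 from 1533 to 500 and Ubd from 17399 to 3801, and Uba6 went from 5420 to 5620.

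Ratios within a library compare the genes without the scaling between libraries. They still carry the length trend of a library, which was marked in ox-LDL replicate 2. Each ratio is the difference of log2(FPKM + 1) between 2 genes, or in 1 case between a gene and the mean of 3. The 4 ratios were compared by two-sided exact permutation over all arrangements of the libraries. All 4 gave an exact permutation p of 0.00794, the smallest that 5 libraries against 5 allow, and the same value after Benjamini-Hochberg adjustment over the 4, with no overlap between groups. The ratios use the same libraries as the fold changes above and are no separate evidence.

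Uba7, the E1 of ISG15, overtook Uba6, the E1 of FAT10 and a second E1 of ubiquitin. Uba1, the main ubiquitin E1, stayed above Uba7 in every ox-LDL library, with a mean of 42.1 FPKM against 16.9 FPKM. Uba7 was below Uba6 in every control library, with log2 ratios of -0.75, -1.23, -0.95, -1.07 and -1.08 in replicates 1 to 5. It was above Uba6 in every ox-LDL library, with log2 ratios of 0.92, 1.00, 0.53, 1.28 and 1.68. The mean moved from -1.02 ± 0.18 to 1.08 ± 0.43, a shift of 2.10 (exact permutation p = 0.00794, n = 5 each). Without ox-LDL replicate 2 the shift was 2.12.

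Ube2l6 was set against Ube2l3, its paralogue that carries ubiquitin. The log2 ratio was -1.74, -2.16, -2.01, -1.99 and -1.72 in control replicates 1 to 5, and -0.28, -0.45, -0.39, -0.20 and 0.71 in ox-LDL replicates 1 to 5. Ube2l6 thus passed Ube2l3 in ox-LDL replicate 5 and came closer to it in the other 4. The mean moved from -1.92 ± 0.19 to -0.12 ± 0.47, a shift of 1.80 (exact permutation p = 0.00794, n = 5 each), and of 1.88 without ox-LDL replicate 2. Ube2l3 itself had a log2 fold change of 0.42 (edgeR adjusted p = 0.369), with its highest level, 1269 CPM, in ox-LDL replicate 2, and without that library its log2 fold change was -0.044.

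The modifier rose by more than its protease and its conjugating enzymes. The log2 ratio of Usp18 to Isg15 was -1.96, -1.46, -1.80, -2.38 and -1.72 in control replicates 1 to 5 and -3.26, -6.48, -5.66, -5.40 and -5.41 in ox-LDL replicates 1 to 5. The mean fell by 3.38 on the log2 scale, from -1.86 ± 0.34 to -5.24 ± 1.19 (exact permutation p = 0.00794, n = 5 each), and ox-LDL replicate 1, the library with high Usp18 and the lowest Isg15 of its group, was nearest to the controls. Against the mean of Uba7, Ube2l6 and Herc6, Isg15 had log2 ratios of 0.76, 0.02, 0.54, 0.53 and 0.94 in control replicates 1 to 5. The ratios were 2.52, 4.90, 3.06, 2.74 and 3.79 in ox-LDL replicates 1 to 5, highest in replicate 2. The shift was 2.84, from 0.56 ± 0.34 to 3.40 ± 0.96 (exact permutation p = 0.00794, n = 5 each). Replicate 2 was the most extreme ox-LDL library in both ratios with Isg15. Without it the shift was 2.47 here and -3.07 for Usp18 to Isg15.

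**Figure D3:**
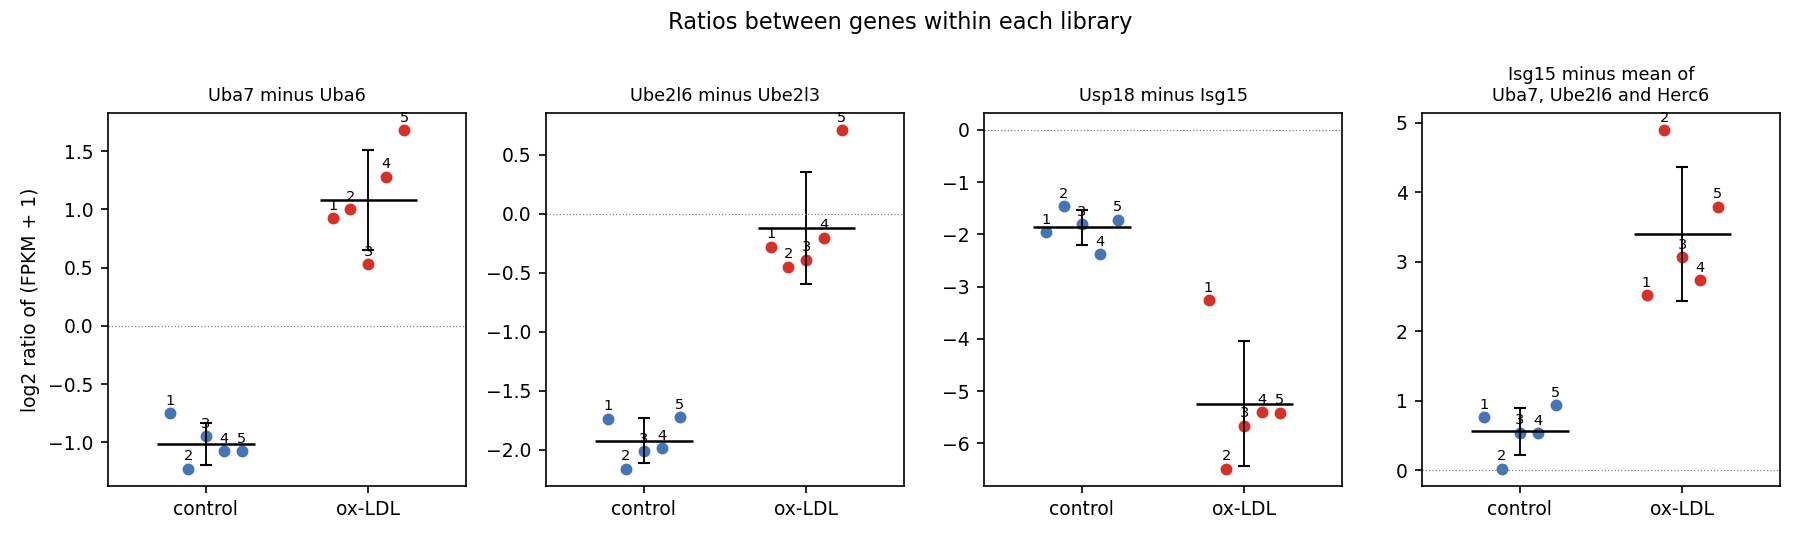
Log2 ratios of FPKM + 1 between genes within each library, with a panel per ratio, the group on the x axis and y axes that differ between panels. Points are libraries numbered by replicate, lines and bars the mean ± SD of 5 libraries, and the dotted line marks equal levels. Uba7 crossed from below to above Uba6, and no panel shows overlap between the groups.

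The 7 genes differed in how the ox-LDL libraries spread. In ox-LDL replicate 2, the deviation from the group mean of log2(CPM + 1) was 1.45 for Isg15, 2.97 for Ubd and 0.82 for Ube2l6, the 3 shortest transcripts at 618, 796 and 1237 bases. It was 0.20 for Usp18 (1595 bases), and -0.78 for Uba7, -0.49 for Herc6 and -0.85 for Uba6, which are 2944, 3702 and 3952 bases long. The deviations of this library thus went from high to low with gene length, as they did over 8385 genes (Spearman's rho -0.73, a description across genes of 1 library). The deviations of the 7 genes are on the TMM scale, and those over 8385 genes are without TMM factors. In the other ox-LDL libraries rho over the same genes lay between 0.11 and 0.61. Control replicates 1 and 4 had a rho of -0.71 and -0.60, in the same direction, and control replicates 2, 3 and 5 of 0.62, 0.58 and 0.48. What set ox-LDL replicate 2 apart was the size of its deviations. Genes under 1000 bases had a median of 0.97 there, against 0.19 and 0.18 in control replicates 1 and 4. Genes over 4000 bases had -1.12, against -0.52 and -0.28. Without ox-LDL replicate 2, the log2 fold changes were 5.03 for Isg15, 1.97 for Ube2l6, 2.60 for Uba7 and 2.15 for Usp18.

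**Figure D4:**
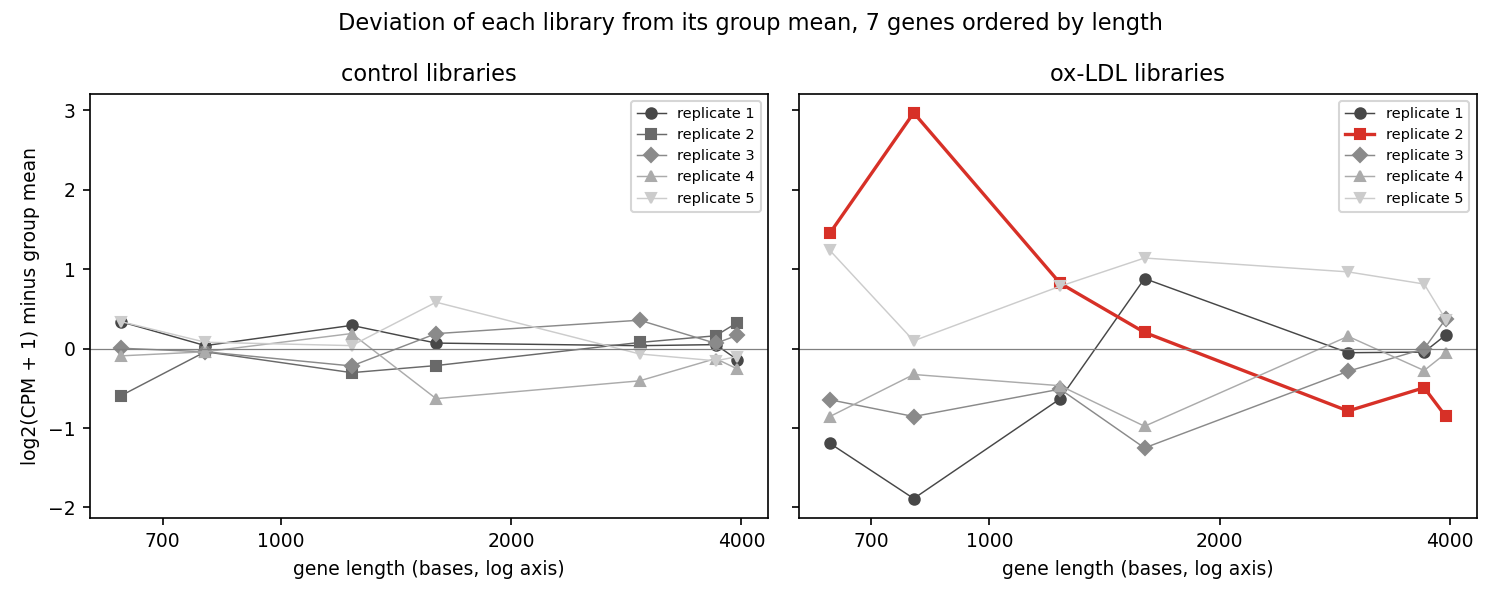
Deviation of each library from its group mean on the log2(CPM + 1) scale (y axis) for the 7 genes, placed by gene length in bases on a log x axis, with controls on the left and ox-LDL libraries on the right. Lines join the values of 1 library. Ox-LDL replicate 2 (red) runs from 1.45 at Isg15 and 2.97 at Ubd down to -0.85 at Uba6.

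Beyond the 7 genes, 10 other genes of both pathways were examined. Of them, 4 were called higher and 0 lower, against 9.4% and 5.35% of all genes tested. Their median log2 fold change was 0.83, beside 0.10 over all genes tested. The 4 were Itgal, Sqstm1, Trim25 and Psmd4. Itgal, a chain of the integrin LFA-1 through which secreted ISG15 acts on lymphocytes, rose from 2.61 ± 0.688 to 29.5 ± 10.9 CPM (SD, n = 5 each; log2 fold change 3.50, edgeR adjusted p = 2.50e-05). Its partner chain Itgb2 had a log2 fold change of 0.36 (edgeR adjusted p = 0.436). Sqstm1, the autophagy receptor p62 that binds FAT10, rose from 222 ± 46.4 to 1383 ± 441 CPM (SD, n = 5 each; log2 fold change 2.64, edgeR adjusted p = 0.000105).

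Trim25, an antiviral ligase that is also linked to ISG15, had a log2 fold change of 1.61 (edgeR adjusted p = 0.00302) and lost its call without control replicate 1, 3 or 4 (highest edgeR adjusted p = 0.0112). Psmd4, the proteasome subunit that serves as a docking site for ubiquitin and FAT10, had a log2 fold change of 1.06 (edgeR adjusted p = 0.00223). The other 6 genes did not pass the test. Among them were Ube2z, the E2 that works with Uba6, at 0.46 (edgeR adjusted p = 0.194), and Nub1, which binds FAT10 and speeds its breakdown, at 0.49 (edgeR adjusted p = 0.0620). The lowest value was that of Arih1, a ligase that works with Ube2l3 and Ube2l6, at 0.14.

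Few relatives of the 7 genes in ubiquitin biology were called, beside 9.4% called higher and 5.35% lower over all genes tested. For families as small as the 8 other E1 and 4 other HERC genes, 0 called is near that share. The count also depended on the libraries. Over all 8 lists examined here, 16 genes were called with all libraries and 34 without ox-LDL replicate 2. These lists include the other pathway genes above and the interferon and TNF genes below. Over all genes tested, 1866 of 12654 were called with all libraries and 3257 of 12973 without ox-LDL replicate 2, so the count over all genes rose too. Of 8 other activating enzymes, 0 were called in either direction (median log2 fold change 0.07), with Uba1, the main ubiquitin E1, highest at 0.95 (edgeR adjusted p = 0.0414) and Uba2 lowest at -0.29. Of 18 ubiquitin and other ubiquitin-like modifier genes, 0 were called (median 0.12), with Map1lc3b lowest at -0.31. Without ox-LDL replicate 2, Uba1 was called higher (edgeR adjusted p = 0.00421). Thus Isg15 and Ubd had higher fold changes than each of the 18 other modifiers, and Uba7 than each of the 8 other E1 genes.

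Of 30 UBE2 enzymes, 0 were called higher and 1 lower (median log2 fold change 0.10), against 9.4% and 5.35% of all genes tested. The exception, Ube2d1, fell from 23.9 ± 1.92 to 13.6 ± 2.88 CPM (SD, n = 5 each; log2 fold change -0.82, edgeR adjusted p = 0.00573) and lost its call in 6 of 10 analyses with a library left out, namely without each control in turn and without ox-LDL replicate 3 (highest edgeR adjusted p = 0.0182). The range ran from -2.33 for Ube2c, an E2 of dividing cells, to 1.67 for Ube2o, neither of them called (edgeR adjusted p = 0.0431 and 0.0116). Ube2c was at -1.14 with control replicate 1 left out, and without ox-LDL replicate 2 Ube2o was called higher at 1.85 (edgeR adjusted p = 0.00127). Of the 4 other HERC ligases 0 were called, from -0.09 for Herc4 to 0.48 for Herc1. Of 35 other USP proteases tested, 2 were called higher and 0 lower (median log2 fold change 0.33), Usp37 at 1.24 (edgeR adjusted p = 0.00778) and Usp39 at 0.89 (edgeR adjusted p = 0.00318). Usp37 kept its call in 2 of 10 analyses with a library left out, those without ox-LDL replicate 1 or 2, and Usp39 in 6 of 10, losing it without control replicate 1, 2, 3 or 4 (highest edgeR adjusted p = 0.0242 and 0.0124). The lowest of this family was Usp4 at -0.46 (edgeR adjusted p = 0.0683).

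**Figure D5:**
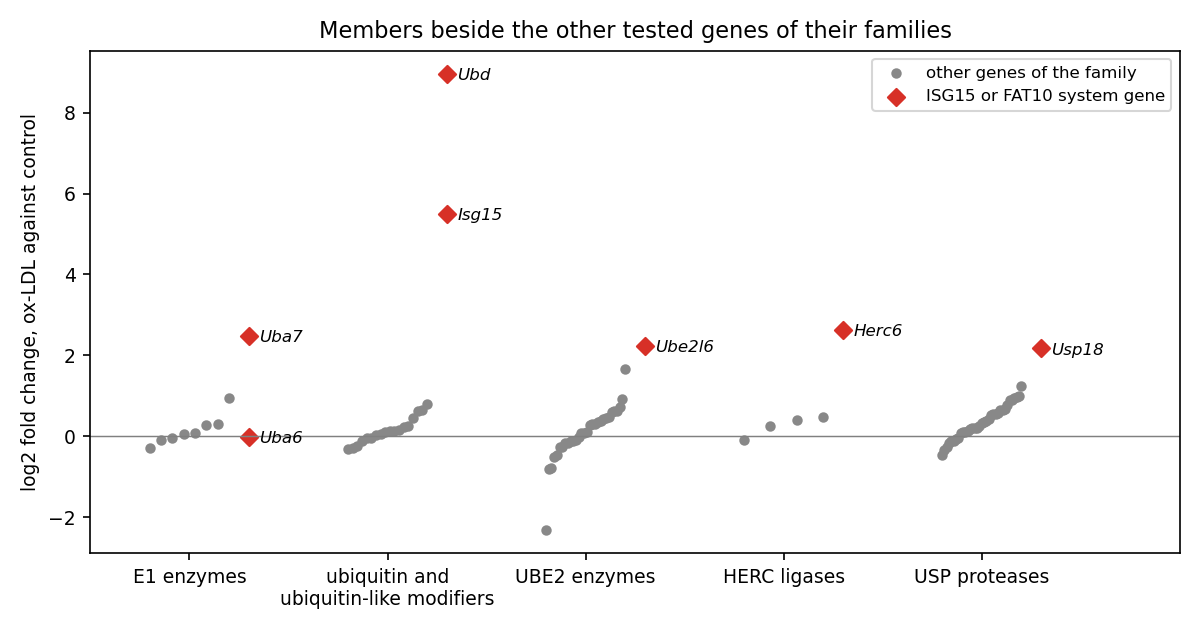
Log2 fold change (y axis, ox-LDL against control, edgeR) of the 7 genes beside the other tested genes of 5 families on the x axis. Red diamonds are the 7 genes, and grey points the 8 other E1 enzymes, 18 modifiers, 30 UBE2 enzymes, 4 HERC ligases and 35 USP proteases, placed in order of value. Ubd is drawn at its fitted value of 8.97, and Uba6 lies at -0.02 among the other E1 enzymes.

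Type I interferon signals through Ifnar1 and Ifnar2 to a complex with Stat2 and Irf9 that binds the ISRE. Of 9 genes of this arm that were tested, 4 were called higher and 0 lower, against 9.4% and 5.35% of all genes tested. Their median log2 fold change was 1.00. Stat2, to which Usp18 binds, rose from 12.8 ± 3.01 to 55.0 ± 22.8 CPM (SD, n = 5 each) with a log2 fold change of 2.10 (edgeR adjusted p = 0.000371). Irf7, the factor that amplifies interferon production, ranged from 8.39 to 66.3 CPM in the controls and from 210 to 939 CPM after treatment. Its log2 fold change was 4.54 (edgeR adjusted p = 0.000651) and 5.44 without control replicate 5, which held the highest control value. Ifnar2, the receptor chain that Usp18 binds, had a log2 fold change of 1.58 (edgeR adjusted p = 0.00438) and lost its call in 6 of 10 analyses with a library left out, without each control in turn and without ox-LDL replicate 5 (highest edgeR adjusted p = 0.0158). Irf9 had a log2 fold change of 1.00 (edgeR adjusted p = 0.0117) and was called without ox-LDL replicate 4 (edgeR adjusted p = 0.00848). The lowest value was -0.16 for Irf3, and Ifnb1 had too few counts to be tested.

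Interferon gamma and TNF are the known inducers of Ubd. Of 10 genes of these pathways, 4 were called higher and 1 lower, against 9.4% and 5.35% of all genes tested. Their median log2 fold change was 1.29. Ifng had 0 counts in control replicates 1 to 4 and 5 counts in control replicate 5, and 31, 168, 48, 56 and 405 counts in ox-LDL replicates 1 to 5. All ox-LDL libraries were above the controls (edgeR adjusted p = 0.000860), with replicates 5 and 2 the highest, whereas for Ubd replicate 2 alone stood out. The summed T cell and NK cell markers were at 0.257 to 1.09 and 0.258 to 0.738 CPM in control libraries and at 0 to 0.956 and 0 to 1.03 CPM in ox-LDL libraries. Tnf rose from 11.0 ± 1.27 to 326 ± 247 CPM (SD, n = 5 each; log2 fold change 4.89, edgeR adjusted p = 0.000120). Irf1, a factor induced by interferon gamma, had a log2 fold change of 4.70 (edgeR adjusted p = 2.14e-05), and Jak2, a kinase of its receptor, 1.64 (edgeR adjusted p = 0.000112). Ifngr1, the ligand-binding receptor chain, fell from 171 ± 31.7 to 54.4 ± 11.2 CPM (SD, n = 5 each; log2 fold change -1.66, edgeR adjusted p = 0.000184).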

How the data were processed

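RNA-seq of 10 libraries, 5 per group, was analysed. By the submitters' processing notes, the authors checked reads with FastQC, aligned them to mm9 with HISAT2 2.0.5, then ran SAMtools 1.4 and StringTie 1.3.3.13. They deposited estimated counts per gene (13.6% not whole) and length-scaled values without a named unit, treated as FPKM because count over value gave a constant length per gene (median CV 1.24%, 7129 genes). The counting step and its use of strand are not given in the sources used here. Counts were rounded and 9788 circular RNA rows left out. Genes passing filterByExpr were tested with edgeR 4.0.16 (R 4.3.3; TMM, quasi-likelihood, robust) and Benjamini-Hochberg adjustment over all genes. SEs were derived from the F statistic. Alternatives used DESeq2 1.42.0 and limma 3.58.1. Scripts were tested on simulated data.

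The members and gene lists were chosen with earlier results of these data known. Named genes were the 7 members, the extremes of each list, those a role required, those called (added after the calls were known), and for Isg15 and Ubd the 5 most alike. Values of some list genes are not reported here. The NF-kB consensus was added after seeing data, as were ratios with the length trend removed, which is no check because a trend removed within groups cannot move their means. Each group stayed as its labels give it, and counting intervals were not used because the spread between libraries exceeds counting error. No pair of libraries was a duplicate deposit. Coordinates come from GENCODE on mm9, and promoters from RefSeq GRCm38.p6.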

Additional observations from a re-analysis of the deposited data

Results flagged for a closer look

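Of 22 sets of 5 libraries examined (levels and ratios by group), 3 held a library whose gap to its nearest neighbour exceeded 0.71 of the whole range, the 95% limit for 5 values, where chance gives 1.1. Ubd in ox-LDL replicate 2 had a gap of 0.894 of the range (67.0 CPM, next highest 8.30 CPM). Herc6 in ox-LDL replicate 5 had a gap of 0.725 of the range (199 CPM, next highest 113 CPM). The log2 ratio of Ube2l6 to Ube2l3 in ox-LDL replicate 5 had a gap of 0.788 of the range (0.71, next highest -0.20).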

How the results depend on the processing

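Isg15, Uba7, Ube2l6, Herc6 and Ubd were called higher in all 119 of their alternative analyses (highest adjusted p = 0.00970), and 5 or 6 of the 7 genes were called in each of 26. Ubd could not be tested under a minimum of 10 counts in every library. Its fitted log2 fold change ranged from 3.20 to 9.87 and its bound from 5.07 to 7.23. Uba6 was above 0 with control replicate 5 and ox-LDL replicate 2 left out together (0.089) and ranged from -0.13 to 0.10 with each library left out (0.06, 0.01, 0.10 and 0.01 without control replicates 2 and 3 and ox-LDL replicates 2 and 4). The cause was not tested. Usp18 lost its call with library size alone (adjusted p = 0.0148), limma on log2(FPKM + 1) (0.0224) and on log2(FPKM + 0.1) (0.0229), limma-voom (0.0171) and no filter beyond 1 count (0.0259).

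Over all genes 1866 were called, against 3009 with DESeq2, 3033 with the length trend removed, 3326 without control replicate 5 and ox-LDL replicate 2, 1243 with limma on log2(FPKM + 0.1), 3365 at an adjusted p below 0.05, 849 with a log2 fold change beyond 2 added, and 1262 to 3257 with each library left out, most without ox-LDL replicate 2. The genes of the 8 lists called were 16, against 32, 33, 38, 12, 37 and 8 in the same order, and 11 to 34. Of the genes called over the whole table, 63.7% were higher in ox-LDL, but 43.7% and 42.5% with limma on log2(FPKM + 0.1) and log2(FPKM + 1). Without ox-LDL replicate 2 this share of the called genes was 53.9%. Library size alone moved the median log2 fold change of all genes by -0.19 and upper-quartile scaling by -0.14.

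The labels do not say whether same-numbered libraries are pairs. The deviations of same-numbered libraries correlated at -0.28 to 0.44. This cannot settle the question, because the deviations also followed gene length, with Spearman's rho from -0.71 to 0.62 in control libraries. With the replicate number as a block, 1434 genes and 13 list genes were called, and the ratio shifts stayed at 2.10, 1.80, -3.38 and 2.84 with p = 0.0625 each, the smallest that sign flips of 5 pairs allow in an exact permutation test. Counts were low for Ubd and Ifng in controls, which limits their fold changes.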

Other observations

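With group means removed, the genes most like Isg15 in log2(CPM + 1) over the 10 libraries, among 7638 genes with a mean of at least 10 CPM, were Tor1aip2 (Pearson's r 0.980), Prmt1 (0.978), Med19 (0.973), Cyc1 (0.971) and Renbp (0.971). The genes most like Ubd were Exoc3l4 (0.990), Yif1b (0.970), Coa7 (0.969), BGIG10090_39403 (0.967) and Naa20 (0.963). These coefficients describe libraries that share ox-LDL replicate 2, which held the highest Ubd level, and the named genes were 554 to 2697 bases long. Of the 10 genes, Tor1aip2 (log2 fold change 1.18, edgeR adjusted p = 0.00128) and Exoc3l4 (log2 fold change 2.76, edgeR adjusted p = 0.00261) were called higher, the latter at 1.84 without ox-LDL replicate 2, and the other 8 had log2 fold changes of -0.04 to 0.52 that did not pass the test.

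Among the macrophage markers, Adgre1, which encodes F4/80, rose (log2 fold change 2.07, edgeR adjusted p = 0.000287), and the other 6 did not pass the test. The summed mesothelial markers were at 0.642 to 3.38 CPM in control and 1.71 to 4.18 CPM in ox-LDL libraries.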
